A study of Mus musculus with 12 samples.

Results

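Bcat1, which encodes the cytosolic branched-chain aminotransferase, was followed in hepatic stellate cells together with 9 genes of the amino acid stress response, Atf4, Ddit3, Trib3, Asns, Chac1, Psat1, Phgdh, Shmt2 and Sesn2. Bcat1 was chosen by its measured change between cultures with and without PDGF-B on these same arrays, so its response to the ligand is given as a description and carries no test. The other 9 were taken as known members of the ATF4 pathway. All 10 genes were among the 13171 measured genes, of 19057 named on the array, and they are covered by 20 of its 45281 probes. The cells were stellate cells, the vitamin A-storing pericytes of the liver, isolated from mice by pronase and collagenase digestion and a Percoll gradient and cultured in DMEM with fetal bovine serum. All mice carried floxed alleles of Pdgfrb, which encodes the PDGF receptor beta, with 129S4/SvJae as the background strain and an FVB line as the source of the Cre transgene. Wild-type cells came from Cre-negative mice and knockout cells from mice with Cre under the GFAP promoter, so deletion depends on the activity of that promoter in the cells. Each genotype was measured without ligand and with PDGF-B at 10 ng/ml in serum-free medium with albumin, the vehicle, which gave 4 groups of 3 arrays. The age of the mice and the length of treatment were not given in the sources used here. Sample titles share 6 codes, 3 per genotype (wild type P11, P393 and P530, knockout P338, P522 and P524), and each code has 1 array without and 1 with ligand. Cells sharing a code are called a preparation. Whether a code is an animal, a pool or a culture is not stated, and p-values therefore measure the spread between these arrays only, which can be technical.

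Cells that run short of amino acids leave transfer RNAs uncharged, which activates the kinase GCN2, while stress in the endoplasmic reticulum activates PERK. Both phosphorylate the initiation factor eIF2, which lowers general translation and raises translation of the ATF4 messenger RNA, so ATF4 activity can change with little change in Atf4 RNA. ATF4 pairs with other bZIP proteins on amino acid response elements and switches on genes for amino acid synthesis, uptake and tRNA charging. Branched-chain amino acids are transaminated by BCAT1 in the cytosol and BCAT2 in mitochondria, a step that passes their nitrogen to glutamate, and stellate cells that turn into myofibroblasts have a high demand for amino acids, glycine among them, because they make collagen.

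Values are log2 intensities after background correction and quantile normalization, and changes are differences of them. Levels were compared only within a probe, since probes differ in brightness for reasons other than RNA abundance. On the 12 arrays 46.5% to 52.8% of probes lay above background. Pdgfrb had preparation means of 6.74 to 7.69 in wild-type and 6.46 to 7.66 in knockout cells, and since the position of its probe relative to the deleted part is not known here, this does not check the genotype labels. Of the stellate and myofibroblast markers 11 of 16 were above background on all arrays, with Rgs5 at background on all of them, and their mean level was 8.87 to 9.19 in wild-type and 8.67 to 9.09 in knockout preparations. Macrophage markers were also present, 12 of 14 above background on all arrays with a mean level of 9.89 to 10.13 in wild-type and 9.20 to 10.08 in knockout preparations, as were 6 of 7 mesothelial markers, at 8.66 to 9.07 and 7.50 to 9.79. Of the hepatocyte markers 1 of 10 was above background on all arrays, and Alb, Apoa1, Cyp3a11, Cyp2e1 and Tat were at background on every array. In bulk RNA a change in the share of a cell type and a change in RNA per cell cannot be told apart.

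Bcat1 was brighter with PDGF-B in 5 of 6 preparations. Without and with ligand it measured 7.54 and 8.34 in P393, 7.98 and 9.21 in P530, 7.13 and 7.83 in P338, 7.98 and 8.67 in P522, and 8.26 and 8.90 in P524. The exception was P11, a wild-type preparation, at 7.07 without and 6.76 with ligand, where Bcat1 was also dimmest of all. The 3 knockout preparations spanned 1.10 in mean level, while their changes were close to equal at 0.70, 0.69 and 0.64, and the wild-type changes spread from -0.31 to 1.23. Group means were 7.53 ± 0.46 and 8.10 ± 1.24 in wild-type cells and 7.79 ± 0.59 and 8.47 ± 0.56 in knockout cells without and with ligand (SD, n = 3 each). The mean change was 0.57 ± 0.79 in wild-type and 0.68 ± 0.04 in knockout preparations (SD, n = 3 each), and 0.63 ± 0.50 over all 6, which is 1.54-fold. Arrays with and without ligand overlapped in both genotypes. Before normalization the Bcat1 probe ran from 137 intensity units (P11 with ligand) to 559.6 (P524 with ligand), against array medians of 86.2 to 96.2. Of all genes 8 (0.0607%), Bcat1 included, had a mean change at or above that of Bcat1, which restates the choice of the gene.

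**Figure D1:**
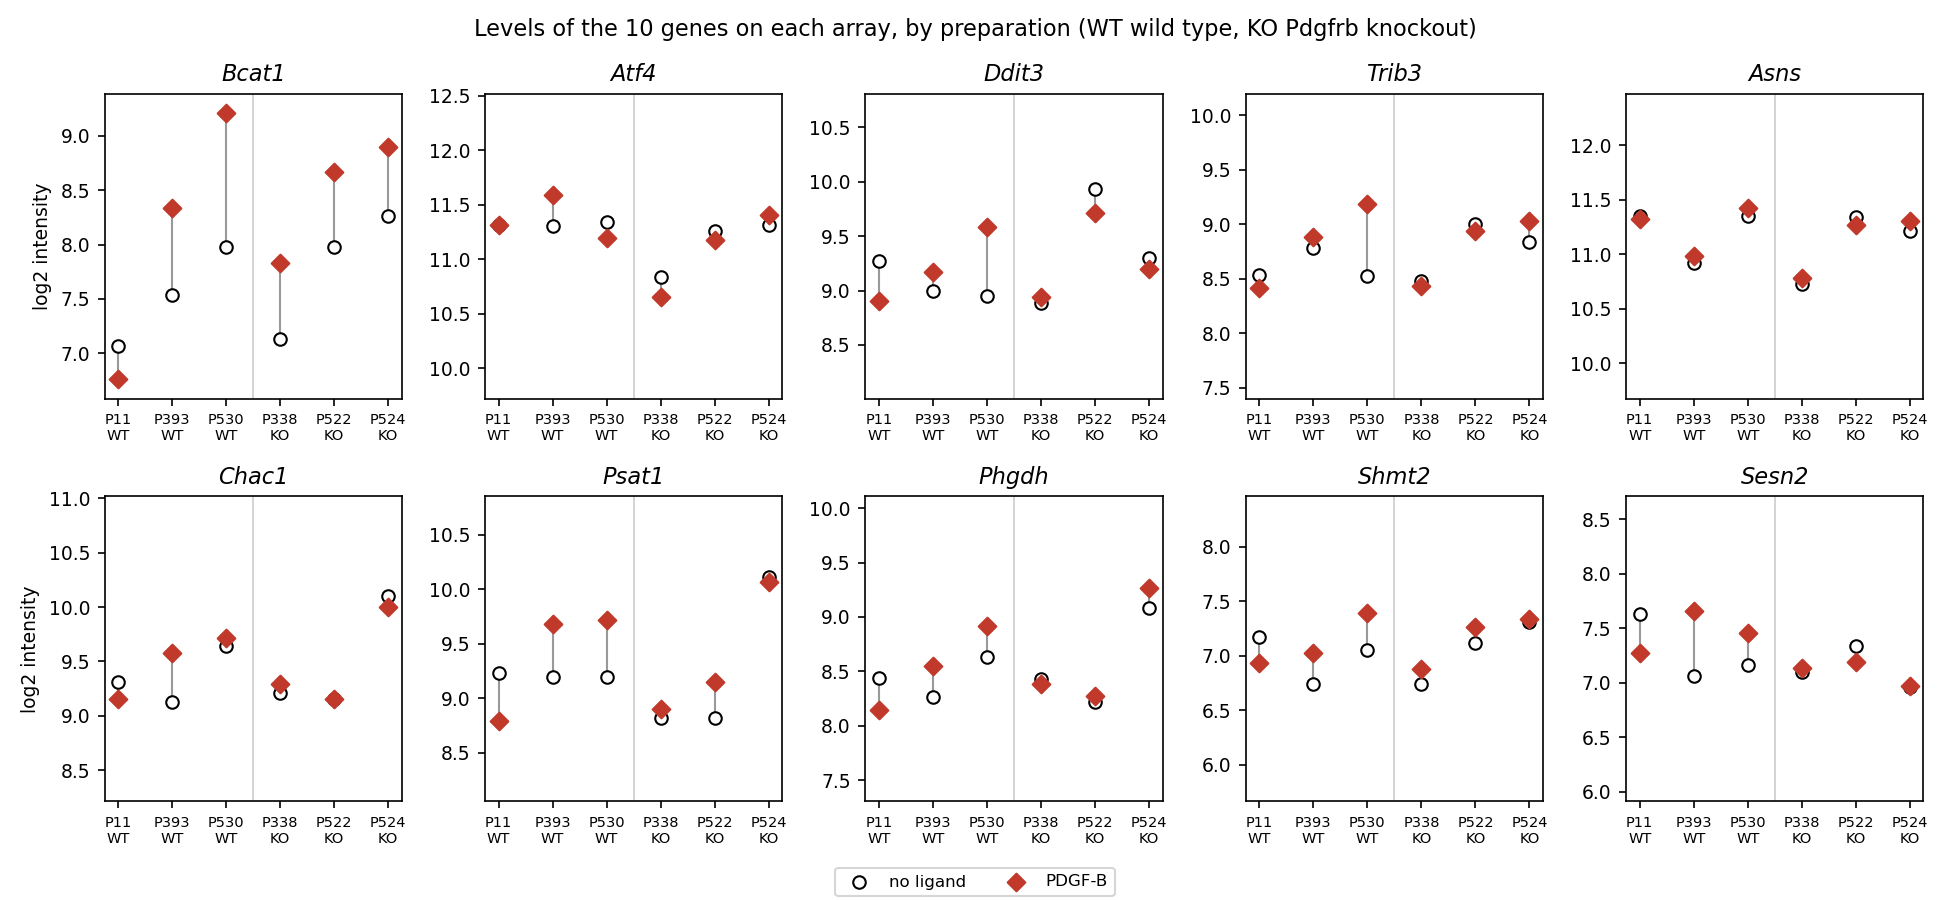
Normalized log2 intensity of each of the 10 genes (vertical axes, all spanning the same range) in the 6 preparations (horizontal axes, wild type left of the grey line and knockout right of it), with open circles for arrays without ligand, red diamonds for PDGF-B, and a line joining the arrays of a preparation. Bcat1 shows the longest lines, upwards in every preparation but P11, while for Atf4, Asns and Chac1 most lines are short beside the distance between preparations.

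The regulators of the response differed in direction between preparations, as the plot of levels by preparation shows. Atf4, the transcription factor at its centre, lay between 10.65 and 11.59 on the 12 arrays. Without ligand its 3 wild-type arrays were nearly equal at 11.32, 11.31 and 11.35, and with ligand they were 11.32, 11.59 and 11.20 in the same preparations, P11, P393 and P530. In knockout cells Atf4 measured 10.84 and 10.65 in P338, 11.26 and 11.18 in P522, and 11.32 and 11.41 in P524 without and with ligand. The Atf4 probe was thus higher with ligand in 2 of 6 preparations, with a mean change of -0.01 ± 0.17 (SD, n = 6).

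Ddit3, which encodes CHOP, a bZIP factor of prolonged stress, went from 8.95 to 9.58 in P530 and from 8.99 to 9.17 in P393, but from 9.27 to 8.91 in P11. In knockout cells it measured 8.89 and 8.94 in P338, 9.93 and 9.71 in P522, and 9.30 and 9.19 in P524. It was therefore higher with ligand in 3 of 6 preparations, and the highest values of all were those of P522, with and without ligand. Trib3, a pseudokinase that CHOP and ATF4 induce and that restrains them, measured 8.53 and 8.42 in P11, 8.78 and 8.89 in P393, and 8.53 and 9.19 in P530 without and with ligand. Its knockout values were 8.48 and 8.44 in P338, 8.83 and 9.03 in P524, and P522 was at 8.94 with ligand after a change of -0.06. Only the P530 pair of Trib3 was far apart on its brightest probe, by 0.66, and the other pairs differed by 0.20 or less. Its other probes, above background on all 12 arrays, changed by 0.34 and 0.03 in P530 and by 0.25 and 0.27 in P393. They followed the brightest with r = 0.85 and 0.34, so the size in P530 rests on 1 probe. Mean changes were 0.03 ± 0.35 for Ddit3 and 0.12 ± 0.29 for Trib3 (SD, n = 6 each).

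Among the biosynthetic enzymes Asns, asparagine synthetase and a classical ATF4 target, had the smallest differences with ligand. Its values without and with ligand were 11.35 and 11.32 in P11, 10.92 and 10.98 in P393, 11.35 and 11.42 in P530, 10.73 and 10.78 in P338, 11.35 and 11.27 in P522, and 11.21 and 11.31 in P524. The pair differences of Asns lay between -0.08 and 0.09, and its mean change was 0.03 ± 0.07 (SD, n = 6).

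Psat1, the aminotransferase of serine synthesis, behaved differently in the wild-type preparations. Without ligand they were almost identical at 9.23 (P11), 9.20 (P393) and 9.19 (P530), and with ligand they parted to 8.79, 9.68 and 9.72. In knockout cells Psat1 measured 8.82 and 8.90 in P338, 8.82 and 9.15 in P522, and 10.11 and 10.06 in P524. Both P524 arrays lay above every other array, and the ligand change had both signs in each genotype, with a mean of 0.16 ± 0.37 (SD, n = 6). Phgdh, the dehydrogenase that starts serine synthesis, measured 8.44 and 8.15 in P11, 8.27 and 8.55 in P393, 8.63 and 8.92 in P530, 8.43 and 8.38 in P338, 8.22 and 8.28 in P522, and 9.08 and 9.27 in P524. Like Psat1 it was brightest in P524 and lower with ligand in P11. Shmt2, the mitochondrial enzyme that turns serine into glycine, measured 7.17 and 6.93 in P11, 6.74 and 7.02 in P393, 7.05 and 7.39 in P530, 6.73 and 6.87 in P338, 7.12 and 7.27 in P522, and 7.31 and 7.34 in P524. Its brightest probe was higher with ligand in 5 of 6 preparations, the same 5 as that of Bcat1, with a mean change of 0.12 ± 0.21 (SD, n = 6), and at least 5 of 6 preparations were higher for 12% of all genes. Another kept probe of Shmt2, above background on all 12 arrays, changed by 0.0004 on average and was higher in 3 of 6 preparations.

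The remaining genes act on redox balance and growth signalling. Chac1, whose product breaks down glutathione, measured 9.31 and 9.16 in P11, 9.13 and 9.58 in P393, 9.64 and 9.71 in P530, 9.21 and 9.30 in P338, 9.16 on both arrays of P522, and 10.10 and 10.00 in P524. Its P393 pair differed by 0.45 and the other pairs by -0.15 to 0.08. Sesn2, which encodes sestrin 2, a leucine-binding inhibitor of mTORC1, measured 7.63 and 7.27 in P11, 7.06 and 7.66 in P393, 7.16 and 7.46 in P530, 7.10 and 7.14 in P338, 7.33 and 7.19 in P522, and 6.96 and 6.97 in P524. Its wild-type pairs differed by -0.36, 0.59 and 0.29, its knockout pairs by 0.04, -0.14 and 0.01.

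Counted by preparation, the genes pointed in different directions within the wild-type group. In P11 all 10 genes were lower with ligand, in P393 all 10 were higher, and in P530 9 of 10 were higher with Atf4 as the exception. The shares of all genes higher with ligand were 54.2% in P11, 45.1% in P393 and 49.3% in P530. In the knockout preparations 7 of 10 (P338), 4 of 10 (P522) and 7 of 10 (P524) were higher, against 49.5%, 49.2% and 49.6% of all genes. Leaving out Bcat1, the median change of the other 9 was -0.24 in P11, 0.28 in P393, 0.29 in P530, 0.05 in P338, -0.06 in P522 and 0.03 in P524, where the median of all genes was between -0.02 and 0.02. This count was made after the values were seen, and the genes are not independent of each other. It also depended on the scaling, since with arrays scaled to the same median in place of quantile normalization 4 of 10 were higher in P11 (Atf4, Asns and Chac1 among them) and 7, 3 and 3 of 10 in P530, P338 and P522. That scaling moved the median of all genes by 0.09 in P11 and -0.12 in P530. With no background correction the counts stayed at 0, 10, 9, 7, 4 and 7 in the order given, and with the authors' normalized values that of P522 was 5. Beside these counts, the mean of the mesothelial markers changed with ligand by -0.60 in P530 and by -0.18 to 0.04 in the other 5 preparations, and that of the stellate markers by 0.26 in P530 and -0.08 to 0.19 in the others. The part of either in the counts was not tested.

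**Figure D2:**
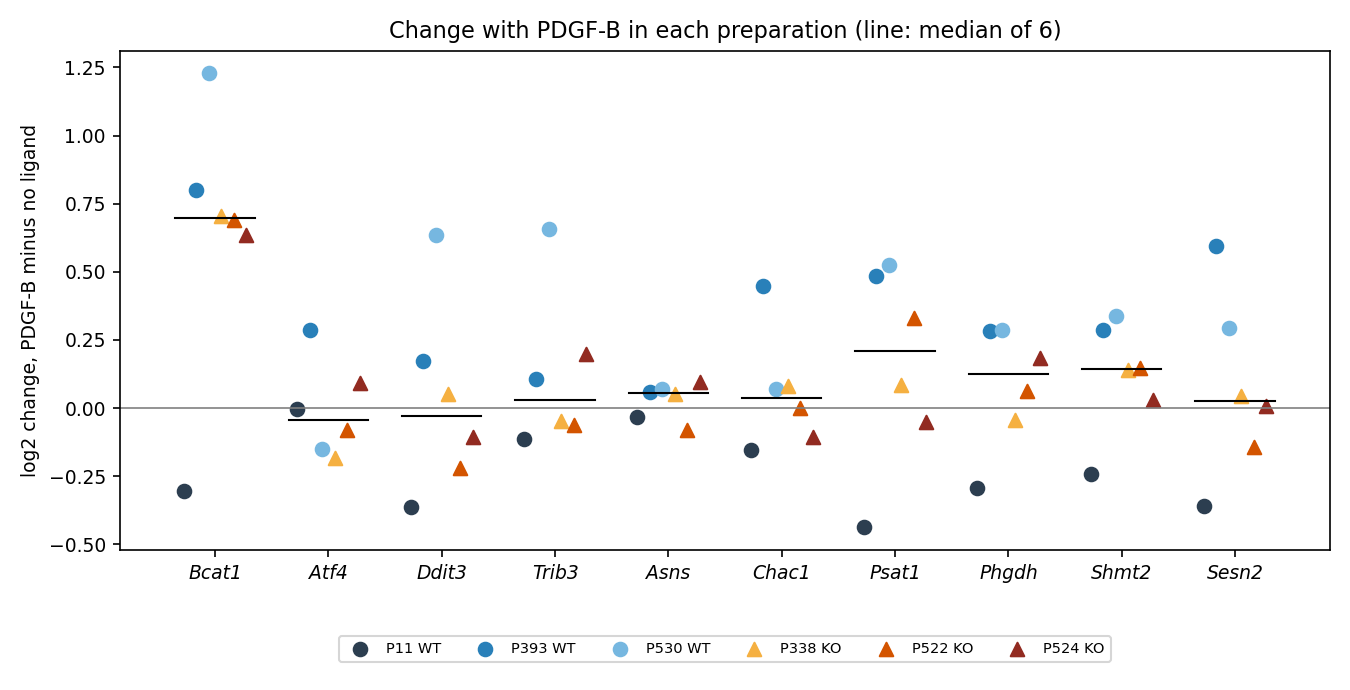
Log2 change with PDGF-B (vertical axis, array with ligand minus array without) for each of the 10 genes (horizontal axis), with 1 point per preparation, circles for wild type and triangles for knockout, and a black line at the median of the 6. The darkest circles (P11) lie at or below 0 for every gene, and the Bcat1 points of the other 5 preparations lie between 0.64 and 1.23.

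Tested in limma, none of the 9 genes other than Bcat1 passed for PDGF-B. The test asked whether the ligand changed them in wild-type cells, in knockout cells or averaged over both, and whether the genotypes differed in that change. At an adjusted p below 0.05 it called 0 of 9 in each, where 0 of 13171 genes (0%) passed in each. At an unadjusted p below 0.05 it again found 0 of 9, against 77 genes (0.585%) in wild-type cells, 128 (0.972%) in knockout cells, 109 (0.828%) on average and 78 (0.592%) for the difference between genotypes. The smallest unadjusted p was 0.296 in wild-type cells (Sesn2, 0.18 ± 0.16 SE), 0.591 in knockout cells (Shmt2, 0.11 ± 0.19 SE), 0.407 on average (Shmt2, 0.12 ± 0.13 SE) and 0.381 for the difference (Sesn2, -0.21 ± 0.23 SE). All 9 means were positive in wild-type cells, with a median of 0.13, and 5 of 9 in knockout cells, with a median of 0.02, where 49.2% and 49.0% of all genes were positive. The wild-type signs depended on single preparations, and in P11 0 of 9 were higher. Without P393 the means of Atf4 (-0.08), Chac1 (-0.04) and Sesn2 (-0.03) were negative, and without P530 those of Ddit3 (-0.09), Trib3 (-0.005) and Phgdh (-0.005). For the difference between genotypes 0 of 9 were positive (median -0.10, 50.7% of all genes), and each turned positive in some setting. The fit above did not use the pairing of arrays by preparation, so differences between preparations were part of the spread behind these SEs and p-values. With the preparation as a block on all arrays 0 of 9 passed, and 0 of 9 had an unadjusted p below 0.05. The shares of all genes at that unadjusted p were then 4.76% in wild-type cells, 6.26% in knockout cells, 6.29% on average and 4.49% for the difference. Without P11 but with no block, the count that passed was also 0 of 9. With both changes together, the preparation as a block and P11 left out, Psat1 (0.50, adjusted p = 0.0309) and Sesn2 (0.44, adjusted p = 0.0383) passed in wild-type cells, beside 157 genes in all (1.19%). On average over genotypes Psat1 alone then passed (0.31, adjusted p = 0.0238), beside 225 genes (1.71%). Without P11, wild-type cells are represented by 2 pairs of arrays. The mean Bcat1 change in wild-type cells, given without a test, was 1.01 without P11, 0.46 without P393 and 0.25 without P530.

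Between the genotypes none of the 10 genes passed the test. Knockout was compared with wild type separately without and with ligand, and limma called 0 of 10 in each, where it called 1 gene (0.00759%) without and 2 genes (0.0152%) with ligand. At an unadjusted p below 0.05 the test found 0 of 10 without ligand, against 2.22% of all genes, and 1 of 10 with it, against 1.45%. Without ligand the smallest p among the 10 was that of Ddit3, 0.30 ± 0.28 SE (unadjusted p = 0.306), whose knockout arrays were at 8.89, 9.93 and 9.30 around wild-type values of 9.27, 8.99 and 8.95. With ligand Sesn2 was lower in knockout cells, at 7.14, 7.19 and 6.97 against 7.27, 7.66 and 7.46, so that the groups did not overlap. The difference was -0.36 ± 0.16 SE with an unadjusted p of 0.0478, and its adjusted p lay between 0.745 and 1 over all settings tried, so it did not pass. That fit treats arrays of 1 preparation as independent. With the preparation as a random block in limma the SE was 0.22 and the unadjusted p 0.134. In that fit 0 of 10 genes had an unadjusted p below 0.05, against 1.18% of all genes. Among all genes 1.99% were lower without overlap in that comparison, and 1 of 10 genes is too few to be set against that share. Bcat1 differed by 0.26 ± 0.57 SE without and 0.36 ± 0.57 SE with ligand (unadjusted p = 0.655 and 0.537), and the latter turned to -0.31 without P11 and was 0.92 without P530. Knockout means were above wild type for 7 of 10 genes without ligand and 5 of 10 with it, with medians of 0.10 and -0.01, where 53.7% and 54.5% of all genes were higher.

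Preparations of the same genotype differed in most of the 10 genes. An F test over the preparations of a genotype, with the ligand in the model, passed for 9 of the 10 genes at an adjusted p below 0.05, where 46.1% of all genes passed. Adjusted p-values in limma were 2.30e-04 for Asns, 4.94e-04 for Chac1, 6.72e-04 for Phgdh, 0.00105 for Bcat1, 0.00163 for Psat1, 0.00546 for Atf4, 0.0144 for Ddit3, 0.0172 for Shmt2 and 0.0262 for Trib3, while Sesn2 had 0.599. From the lowest to the highest preparation mean within a genotype, Bcat1 spanned 3.20-fold in wild-type and 2.14-fold in knockout cells. Psat1 spanned 1.36-fold and 2.34-fold, Phgdh 1.39-fold and 1.90-fold, Ddit3 1.14-fold and 1.87-fold and Chac1 1.36-fold and 1.86-fold in the same order. Spans of the other 5 genes ran from 1.10-fold (Sesn2) to 1.35-fold (Asns) in wild-type and from 1.23-fold (Sesn2) to 1.54-fold (Atf4) in knockout cells. The count fell to 5 without P338 (Atf4, Ddit3, Trib3 and Shmt2 lost), where 40.2% of genes passed, and to 4 without P524 (Trib3, Chac1, Psat1, Phgdh and Shmt2 lost), where 27.8% passed. It was 7 without P522 (Ddit3 and Trib3 lost), where 32.2% passed. Bcat1 and Asns passed with any of these preparations left out.

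The genes did not share 1 order of preparations. The serine synthesis genes and Chac1 were highest in P524, where the preparation means were 10.09 for Psat1, 9.17 for Phgdh and 10.05 for Chac1, and P530 came next at 9.46, 8.77 and 9.68. The gaps of 0.63, 0.40 and 0.37 between these preparations were larger than the median distance of an array from the mean of its preparation, 0.19, 0.12 and 0.05. Since a preparation has 1 array without and 1 with ligand, that distance contains the ligand change. Ddit3 was highest in P522, 9.82 against 9.27 in P530, and Trib3 too had its highest mean there, 8.97, though only 0.04 above P524. For Bcat1 that distance was 0.35, which reflects its ligand change and is no measure of how well preparations can be ordered. Its means were 8.60 in P530, 8.58 in P524 and 8.32 in P522, and P393 (7.94), P338 (7.48) and P11 (6.92) followed. P524 was above P522 without ligand (8.26 and 7.98) and with it (8.90 and 8.67). P530 was below P524 without ligand (7.98) and above it with ligand (9.21), so these 2 could not be ordered. The lowest mean of 6 genes, Atf4, Ddit3, Trib3, Asns, Psat1 and Shmt2, was that of P338, which was the lowest preparation of 11.4% of all genes, and the highest of 4 genes was that of P524, the highest preparation of 28.5% of all genes. For Trib3, Shmt2 and Psat1 the lowest place was not resolved. P338 was at 8.46, 6.80 and 8.86 and the next preparation at 8.47 (P11), 6.88 (P393) and 8.98 (P522). The median distances of an array from its preparation mean were 0.05, 0.10 and 0.19. Sesn2, which did not pass the F test over preparations (adjusted p = 0.599), had means from 7.45 in P11 to 6.97 in P524, and no order is read from them. Marker means also differed between preparations. That of the macrophage markers was 9.20 in P524 and 9.89 to 10.13 in the other preparations. That of the mesothelial markers was 7.50 in P522, 8.66 in P530, 9.06 and 9.07 in P11 and P393, and 9.77 and 9.79 in P338 and P524. The mean of the cholangiocyte markers, of which 2 of 5 were above background on all arrays and Epcam was at background on every one, was 8.23 in P338 and 6.59 to 7.49 in the others. That mean is over 4 genes. Krt19 and Krt7 among them are also in the mesothelial list, and Cldn4 was above background on 6 arrays. The part of these cell types in the differences between preparations was not tested.

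**Figure D3:**
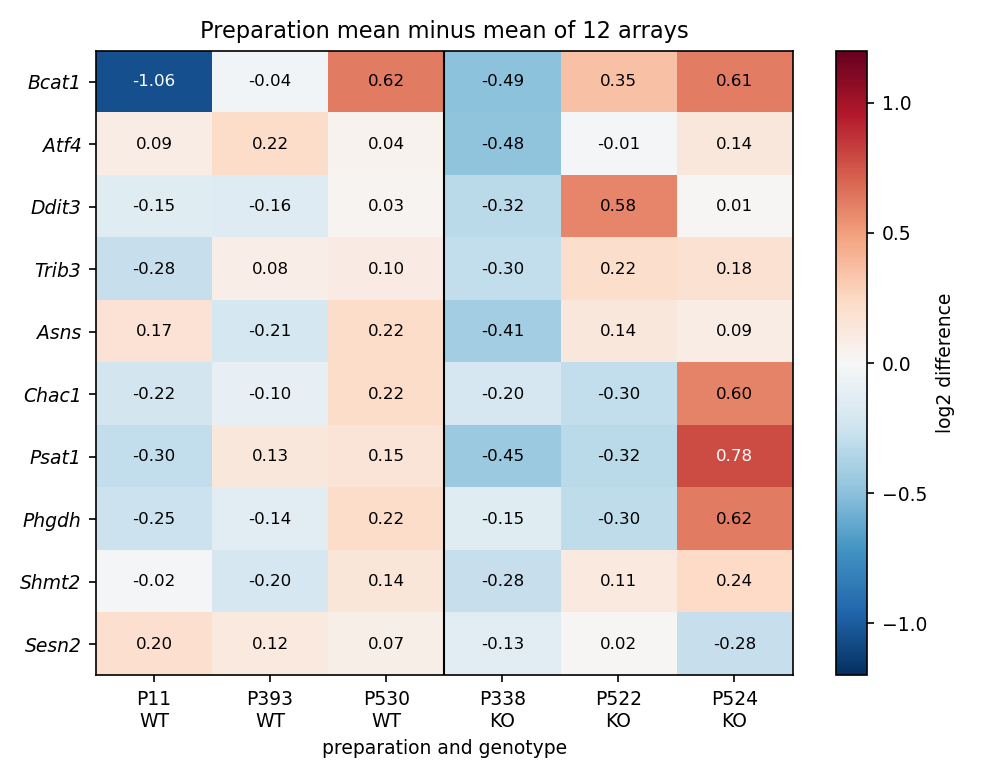
Mean log2 level of each gene (rows) in each preparation (columns, wild type left of the black line) minus the mean of all 12 arrays for that gene, written in each cell and coloured from blue (lower) to red (higher). The row of Bcat1 runs from -1.06 in P11 to 0.62 in P530, P524 is red for Chac1, Psat1 and Phgdh, P522 stands out for Ddit3, and P338 is blue in every row.

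Across the 12 arrays, which share preparations in pairs, the closest companions among the genes were Chac1 and Phgdh (Pearson r = 0.96), Chac1 and Psat1 (0.91) and Psat1 and Phgdh (0.90). Bcat1 went most closely with Trib3 (0.84), and 31 of all genes had a higher r with Bcat1 than Trib3 did. Asns went with Shmt2 (0.77) and Ddit3 with Trib3 (0.74), whereas Atf4 and Bcat1 had an r of 0.21 and Sesn2 and Bcat1 one of -0.06. These values are a description of 12 arrays.

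The genes most like Bcat1 over the 12 arrays were Pcdh1 (r = 0.955), Ror2 (0.935), F2rl2 (0.934), Mrgprf (0.931), Fntb (0.927) and Phldb1 (0.919). Pcdh1 encodes a protocadherin, Ror2 a receptor for Wnt5a, F2rl2 the protease-activated receptor PAR3, and Fntb the beta subunit of farnesyltransferase. Their own mean ligand changes were smaller than that of Bcat1, from 0.04 (F2rl2, near background, above it on 4 arrays) to 0.22 (Mrgprf), and Ror2 was higher with ligand in 6 of 6 preparations and the other 5 genes in 5 of 6. These directions are in part fixed by the choice, since the arrays that gave the correlations include the ligand change by which Bcat1 was chosen. The 6 genes most like Asns were Ccn2 (r = 0.929), Selenof (0.919), Mob4 (0.898), Rspo3 (0.894), Steap2 (0.892) and Mthfd2 (0.883). Ccn2, connective tissue growth factor, differed widely between preparations, from a mean of 11.81 in P338 to 13.42 in P530, and its ligand changes had both signs, from -0.46 in P530 to 0.31 in P524. Mthfd2, the mitochondrial one-carbon enzyme downstream of Shmt2 and itself an ATF4 target, had preparation means from 9.77 in P338 to 10.49 in P11 and P522.

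7 of the genes had further probes, which allowed the measurements to be repeated on the same RNA. In all 19 of the 20 probes were kept, and the probe left out, the third of Sesn2, was above background on 1 array. Bcat1 had a second probe that was close to background, above it on 8 of 12 arrays with a mean of 5.98. It followed the first with r = 0.75 but changed with ligand by 0.09 on average and was higher in 4 of 6 preparations, so that the size of the Bcat1 change rests on 1 probe. Ddit3's second probe followed its first closely (r = 0.96), with a mean change of -0.01. For Atf4 the second probe had r = 0.74, a change of 0.07 and higher values in 4 of 6 preparations, against 2 of 6 for the first. A further Asns probe changed by 0.22 on average and was higher in 5 of 6 preparations, while its brightest probe changed by 0.03 and another by 0.05, so the probes of Asns disagreed about the size. Counted over the 9 other kept probes of these genes, 1 was higher with ligand in P11, 9 in P393, 7 in P530, 8 in P338, 4 in P522 and 5 in P524. Of all genes 54.2%, 45.1%, 49.3%, 49.5%, 49.2% and 49.6% were higher in the same order. These probes share arrays and normalization with the brightest ones, and their count is given for quantile normalization only.

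**Figure D4:**
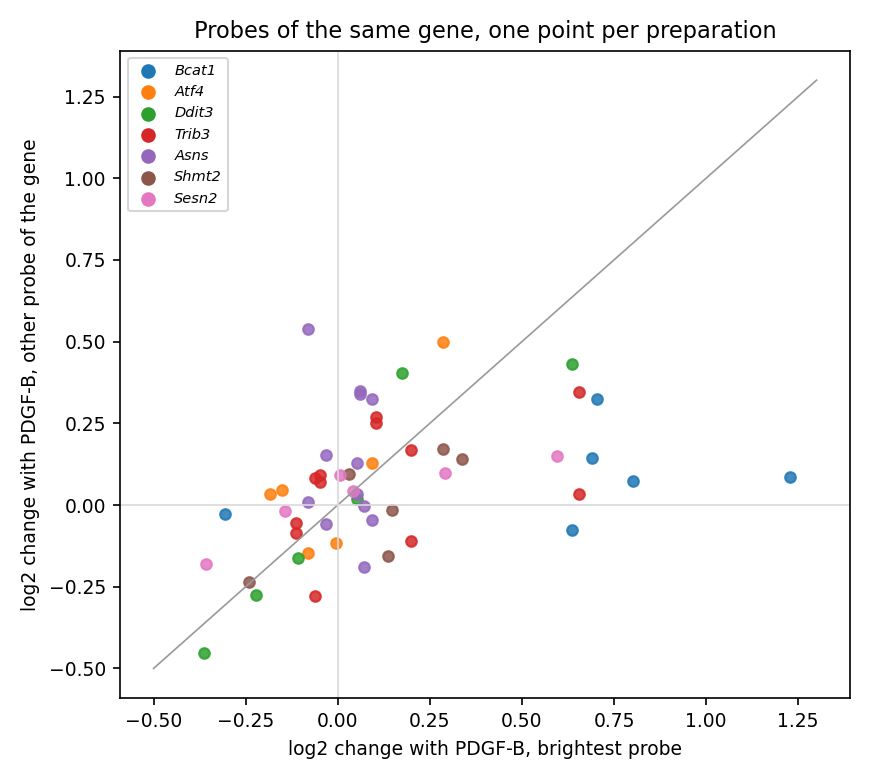
Log2 change with PDGF-B of a gene's other kept probes (vertical axis) against that of its brightest probe (horizontal axis), with 1 point per preparation and probe, coloured by gene, and the grey diagonal marking equal changes. The Bcat1 points lie far below the diagonal in 5 preparations, and those of Ddit3 lie along it.

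Around these genes, 11 lists of the pathway written from textbook knowledge held 192 genes, of which 166 were measured. None of the 166 passed for PDGF-B averaged over genotypes, with or without the preparation as a block, and 96 were positive, where 48.4% of all genes were. Ligand SEs and p-values of the lists are from the fit without the block unless stated, so differences between preparations are part of their spread. The cytosolic aminoacyl-tRNA synthetases, which charge tRNAs and include several ATF4 targets, leaned most to one side, with 16 of 19 positive and a median of 0.06. Farsb, the beta subunit of the phenylalanyl enzyme, differed by 0.18 ± 0.06 SE (unadjusted p = 0.0211, positive in 4 of 6 preparations), and Aars, the alanyl enzyme, by 0.12 ± 0.06 SE, positive in 6 of 6. Of the eIF2 kinases, phosphatase subunits and eIF2B subunits 10 of 12 were positive with a median of 0.04, Eif2b3 at 0.18 ± 0.10 SE and Ppp1r15a, which encodes GADD34, at 0.12 ± 0.09 SE.

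Other ATF4 targets gave 14 of 24 positive and a median of 0.02. Xpot, a tRNA exporter, measured 0.19 ± 0.12 SE and was positive in 5 of 6 preparations, while Slc7a1, the cationic amino acid transporter CAT1, was negative in all 6 at -0.10 ± 0.04 SE (unadjusted p = 0.0353) on a probe near background that was above it on 3 arrays. With the preparation as a block the unadjusted p in limma was 0.0033 for Xpot and 0.056 for Slc7a1. The bZIP partners and Tribbles relatives gave 3 of 10 positive and a median of -0.02, with Trib2 at 0.20 ± 0.13 SE and Trib1 at -0.06 ± 0.08 SE. In the ATF6 and IRE1 branches of the unfolded protein response 12 of 18 were positive with a median of 0.02. In wild-type cells 8 of 18 were positive with a median of -0.01, and in knockout cells 16 of 18 with a median of 0.07. The difference between genotypes was positive in 16 of 18 with a median of 0.10, where 50.7% of all genes were positive. In wild-type and knockout cells 49.2% and 49.0% of all genes were positive, and none of the 18 passed in any of these comparisons. In that list, on average over genotypes, Creld2 measured 0.26 ± 0.11 SE (unadjusted p = 0.0451) and Hspa5, the chaperone BiP, 0.28 ± 0.14 SE, each positive in 5 of 6 preparations.

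None of the enzymes that act downstream of BCAT1 passed either. Branched-chain amino acid breakdown gave 6 of 21 positive and a median of -0.04, where Aldh6a1, the methylmalonate semialdehyde dehydrogenase of valine breakdown, measured -0.28 ± 0.17 SE and Bckdk, the kinase that inhibits the branched-chain ketoacid dehydrogenase, -0.08 ± 0.04 SE, and each was positive in 1 of 6 preparations. With the preparation as a block their unadjusted p in limma was 0.0046 (Aldh6a1) and 0.11 (Bckdk). Serine, glycine and one-carbon metabolism gave 9 of 15 positive with a median of 0.02, and Fpgs, which adds glutamates to folate, measured 0.15 ± 0.14 SE and Mthfd2 0.16 ± 0.19 SE. For the synthesis of other amino acids the count was 9 of 14, with a median of 0.04, and for glutathione 4 of 6, with a median of 0.02. Amino acid transporters gave 9 of 19 and amino acid sensing by mTORC1 11 of 24, with medians close to 0. Arg1, arginase 1, named here after its values were seen, had the largest mean of the 166 genes, 0.39 ± 0.60 SE.

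**Figure D5:**
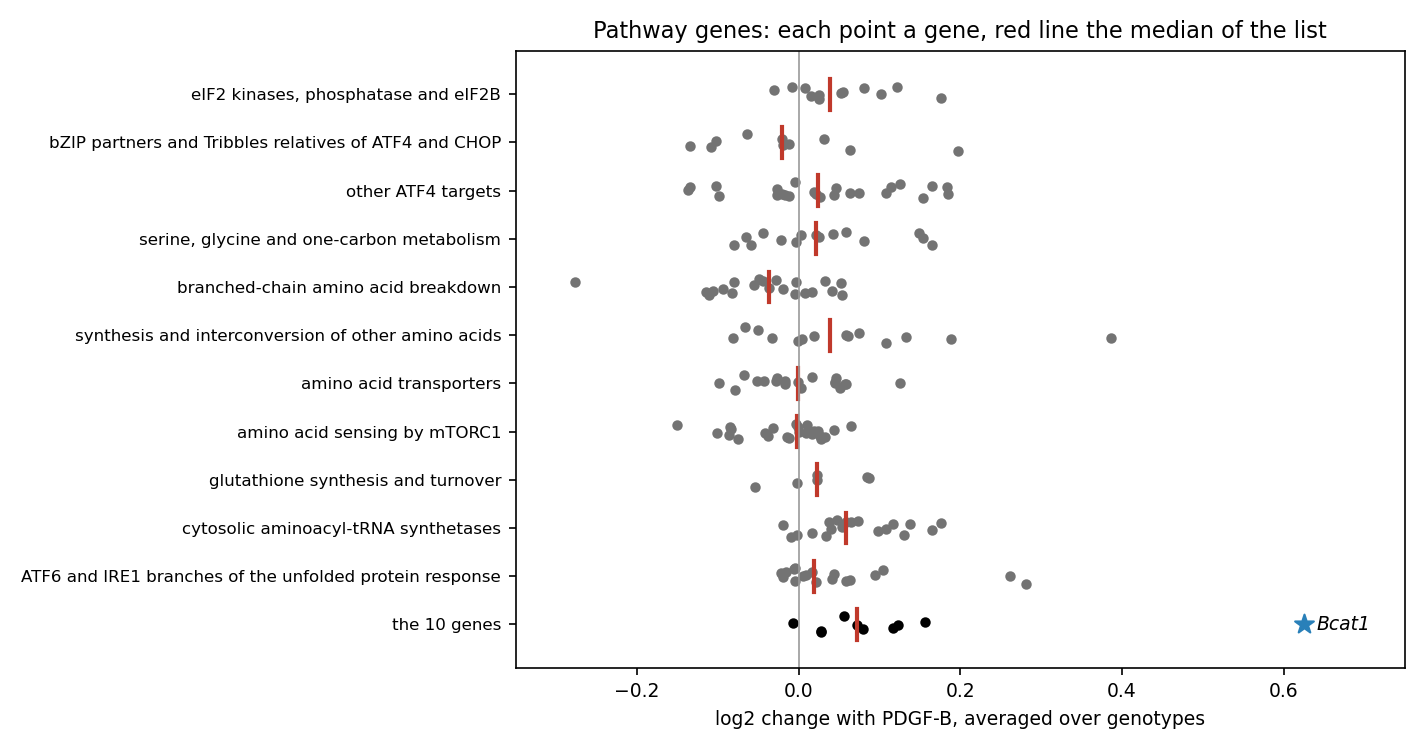
Log2 change with PDGF-B averaged over genotypes (horizontal axis) for every measured gene of the 11 pathway lists (rows, grey points), with a red line at the median of each list, and in the bottom row the 10 genes, 9 as black points with their median and Bcat1 as a blue star outside it. List medians lie between -0.04 and 0.06, and Bcat1 at 0.63 lies to the right of every other point.

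The pathway lists differed between preparations as the 10 genes did. Of the 166 genes 99 (59.6%) passed the F test over preparations of a genotype, against 46.1% of all genes. The bZIP partners and Tribbles relatives had 9 of 10 passing and other ATF4 targets 20 of 24, with Atf3, a stress-induced bZIP factor (adjusted p = 9.32e-07), running from 7.42 in P524 to 9.01 in P522, as Ddit3 was highest in P522. Aldh1l2, a mitochondrial folate enzyme (adjusted p = 9.44e-07), ran from 7.06 in P11 to 8.98 in P524, and Shmt1, the cytosolic relative of Shmt2 (adjusted p = 1.39e-05), from 6.18 in P522 to 7.22 in P524. Slc7a3, a cationic amino acid transporter (adjusted p = 2.49e-06), ran from 6.11 in P522 to 8.45 in P524. All 3 were highest in P524, as Psat1 and Phgdh were, but other genes with the smallest p of their lists were lowest there. Slc7a8, a transporter of neutral amino acids (adjusted p = 1.56e-05), ran from 7.40 in P524 to 8.60 in P11, and the Rag GTPase genes Rragd (adjusted p = 4.57e-05) and Rragc (adjusted p = 5.12e-04) had their lowest means in P524, 6.08 and 11.08, and their highest in P522, 7.45 and 11.80. Amino acid transporters had 14 of 19 passing, synthesis of other amino acids 10 of 14, serine and one-carbon metabolism 10 of 15, glutathione 4 of 6, the unfolded protein response 10 of 18, mTORC1 sensing 13 of 24, tRNA synthetases 10 of 19, branched-chain breakdown 8 of 21 and the eIF2 list 4 of 12.

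Between genotypes none of the pathway genes passed without or with ligand. Without ligand Slc38a2, the amino acid transporter SNAT2, measured -0.36 ± 0.16 SE (unadjusted p = 0.0459), Slc36a1, a lysosomal and plasma membrane transporter of small amino acids, -0.18 ± 0.07 SE (unadjusted p = 0.0286) and Herpud1, a factor of protein degradation at the endoplasmic reticulum, -0.18 ± 0.08 SE (unadjusted p = 0.0406). For Slc38a2 the group means without ligand were 10.03 ± 0.21 in wild-type and 9.66 ± 0.07 in knockout cells (SD, n = 3 each), and with ligand 9.89 ± 0.32 and 9.77 ± 0.16.

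Promoter sequence was examined because ATF4 acts through a known DNA element. RefSeq (GRCm38.p6) gave 12 windows of 300 bases for the 10 genes, from 250 bases before to 50 after a transcription start, and the core of the amino acid response element, TGATGNAA, was searched on both strands. It was found in 3 genes, Asns, Chac1 and Trib3, where 3.97% of 32851 mouse promoter windows held it. Neither the E-box CACGTG (7.15% of all windows) nor the ER stress element (0.119%) was found in the 12 windows, and the other 7 genes, Bcat1 among them, had no match to the core in these windows. The stretches with a match, and the 100 bases before the outermost start of Bcat1, are given 5′ to 3′ on the strand of the gene, with the match in capitals. In Chac1 (chr2:119351007-119351106, plus strand) the match lies at -193 to -186 and in Trib3 (chr2:152344028-152344057, minus strand) at 15 to 22, both on the opposite strand so that the core appears as its reverse complement, and in Asns (chr6:7693210-7693309, minus strand) it lies at -23 to -16 on the strand of the gene. Positions count from 1 at the start, with -1 the base before it. The Bcat1 stretch is chr6:145076158-145076257, minus strand. It covers -100 to -1, as that of Asns does, while those of Chac1 and Trib3 cover -235 to -136 and 4 to 33.
Chac1: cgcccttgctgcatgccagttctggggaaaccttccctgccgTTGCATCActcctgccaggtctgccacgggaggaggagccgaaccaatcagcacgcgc
Trib3: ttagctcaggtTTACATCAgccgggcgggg
Asns: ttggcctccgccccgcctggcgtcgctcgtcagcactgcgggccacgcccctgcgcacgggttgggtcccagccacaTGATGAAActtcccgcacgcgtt
Bcat1: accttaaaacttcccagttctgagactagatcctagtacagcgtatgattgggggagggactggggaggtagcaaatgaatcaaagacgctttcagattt
A match of letters is a description and not a site shown to be bound. The 3 genes with the core had mean ligand changes of 0.03 (Asns), 0.06 (Chac1) and 0.12 (Trib3), none of which passed the test, and their highest preparations were P530, P524 and P522.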

How the data were processed

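RNA of cultured mouse stellate cells was hybridised to 12 one-colour Illumina BeadChip arrays, grouped by the genotype and ligand in the labels. Probe intensity before normalization, on a linear scale, was deposited by the authors in one table, and normalized intensity in another whose method the sources used here do not state. The former was used. It went through normexp background correction (offset 50) and quantile normalization and was put on a log2 scale in limma 3.58.1 (R 4.3.3, statmod 1.5.0). Detection was estimated by mirroring each array's values below its mode, and the 25901 probes above background (p below 0.05) on at least 3 arrays were kept. The brightest kept probe stood for a gene. Of all probes 34885 had 1 symbol in the platform annotation, 18 several and 10378 none, and 34807 were found by gene ID in RefSeq (GRCm38.p6), with 0 symbols updated.

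Means of the 4 groups were fitted together (8 residual degrees of freedom), with Benjamini-Hochberg adjustment over all genes and a threshold of 0.05. The same model was run on simulated data. For the ligand and genotype comparisons these held no differences between preparations, so that check does not cover the effect of such differences. All 10 genes and every probe of them are named. Others named are up to 2 genes of each pathway list with the smallest p in a comparison, the 6 genes most like Bcat1 and like Asns, and Pdgfrb. The members, lists and tests were chosen with earlier results of these data known, so their patterns are not independent support.

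Deviations from group means correlated at r = 0.585 to 0.930 between arrays with the same title code, and each array correlated best with its own code, so the codes were taken to pair the arrays. The fit with the preparation as a block (4 residual degrees of freedom) was an alternative. The others were background correction, scaling, the authors' values, filters on dim probes, the mean of a gene's probes, fewer groups, an intensity trend, array weights and leaving out each preparation. The number of arrays limits the precision. Protein sequences and probe sequences were not used here.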

Additional observations from a re-analysis of the deposited data

How the results depend on the processing

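The comparisons of ligand within a genotype and of genotypes were run under 22 alternatives, the average and the difference between genotypes under 21, and the preparations under 14, with no block settings because the preparation is itself what is tested. Counts of the genes that passed stayed the same or within 1.5 times, with these exceptions. Without P11 and with the replicate block, 2 of 9 genes passed for PDGF-B in wild-type cells (Psat1 and Sesn2) and 1 of 9 on average over genotypes (Psat1). For the preparations of one genotype the count of 9 ranged from 4 to 9 when a preparation was left out, with 5 without P338, 7 without P522 and 4 without P524. It was 8 with no background correction, with the authors' normalized values and with the mean of a gene's probes, Trib3 being lost. The cause of these differences was not tested, beyond the smaller number of arrays. The replicate block on all arrays changed no call, and in paired fits 0 of 9 genes passed for PDGF-B in either genotype or on average. It raised the number of genes with an unadjusted p below 0.05 from 77 to 627 in wild-type cells, from 128 to 825 in knockout cells and from 109 to 829 on average, and 0 genes passed after adjustment in each. Fits with only the arrays compared could not be made for the average, for the difference between genotypes or for the preparations. Of 1300 single-gene values 27 moved by more than the spread, 2 of Psat1 and 1 of Sesn2 passed that had not, all without P11 and with the block, 3 were ligand changes of Bcat1 in such fits, which carry no test here, and 0 reversed a call. In 153 the sign was the other one, 40 of them among the 716 with a size over 0.1. The size of the Bcat1 change ranged from 0.36 (mean of its probes) to 0.85 on average over genotypes. Where leaving out a preparation leaves a group with 2 arrays, the spread is taken from all groups.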
